A study of Homo sapiens with 18 samples.

Results

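The 7 genes described here (NGFR, ADRB1, COL7A1, ACTA2, ST6GAL1, ST6GALNAC6 and BAALC) were chosen out of the 16575 genes of the table because their levels were higher with WWOX transduction (variants WK, WA and WC) than without it (KK, KA and KC) over all second transductions in RT-112 and HT-1376. That difference is therefore given as a description, without a test. The data are 18 CAGE-seq libraries, in which capped RNA 5′ ends were counted, made from RT-112, CAL-29 and HT-1376, 3 human lines of bladder cancer, with 1 library for each of 6 variants per line. The first letter of a variant names the first lentiviral transduction, with WWOX (W) or its control (K), and the second letter names the subsequent one, with AP-2α (A), AP-2γ (C) or control (K). WWOX was carried by a CMV-driven vector with GFP and puromycin resistance, and AP-2 by a CMV-driven vector with neomycin resistance. Every variant, controls included, therefore passed through 2 transductions (multiplicity of infection of 3, polybrene at 8 µg/mL). Each also passed through both selections (puromycin at 1 µg/mL and G418 at 400 µg/mL for 3 weeks). RT-112 was grown in RPMI-1640 and the other lines in DMEM. Within a line, the W libraries descend from 1 WWOX-transduced population and the K libraries from 1 control population, so that the 3 pairs of a line (WK against KK, WA against KA, WC against KC) share 1 first transduction on each side and are not independent replicates.

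WWOX is a tumour suppressor whose WW domains bind proline-rich motifs of partner proteins, AP-2α and AP-2γ among them. The AP-2 factors are transcription factors that bind GC-rich sequence in promoters and enhancers of epithelial genes. The 7 genes serve separate functions: NGFR and ADRB1 encode cell surface receptors, COL7A1 and ACTA2 encode structural proteins, ST6GAL1 and ST6GALNAC6 encode enzymes that attach sialic acid to glycans, and BAALC encodes a small membrane-associated protein first known from brain and leukaemia.

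Levels are given in CPM, the authors' measure of the 5′ ends counted on a gene, scaled to the size of the library. The reads behind each value could be recovered, with 13357102 to 17958572 reads on genes per library, so that 1 read was worth 0.0526 to 0.0709 CPM and 3 reads, the upper limit that a count of 0 allows, were worth 0.158 to 0.213 CPM. Intervals and limits cover counting error only. The library labelled CAL-29 KC correlated with the HT-1376 libraries at a median r of 0.940 and with the other CAL-29 libraries at 0.741, whereas the other 17 libraries were nearest to their own line. It is shown apart and enters none of the main fits, only the alternative fits of 18 libraries and the search for values that stand apart. All 6 epithelial markers (EPCAM, CDH1, KRT7, KRT8, KRT18 and KRT19) were at 5 CPM or more in every line. In HT-1376 they summed to 12604 to 14411 CPM in K and 9361 to 10601 CPM in W. The 7 urothelial markers summed there to 527.8 to 1202 CPM in K and 353.2 to 495.4 CPM in W. Both sums were thus lower in W in HT-1376, overlapped in RT-112 and were higher in W in CAL-29 (KC left out). GATA3 and UPK1B were at 73.81 CPM or more in HT-1376 and PPARG at 3.69 to 12.5 CPM. FOXA1, UPK1A, UPK2 and UPK3A were at most 0.79 CPM there. The overexpressed genes were checked first. The CPM of WWOX in W over K was 0.713 to 0.857 in the RT-112 pairs and 0.831, 0.778 and 1.36 in the HT-1376 pairs (WK, WA and WC in this order), so that the W label was matched by a higher WWOX count in 1 of 6 pairs. A transcript begun at the vector's promoter need not be counted at the WWOX gene, and whether it was counted was not tested. W and K accordingly refer to the labelled transduction, not to a WWOX level measured in these libraries. The methods of the study state that WWOX and AP-2 proteins were blotted to check that the transductions had succeeded. TFAP2A was higher in the libraries labelled A in 3 of 4 comparisons of RT-112 and HT-1376 (0.909-fold in WA against WK of HT-1376). TFAP2C was 1.35- to 4.55-fold higher in the libraries labelled C in 4 of 4. In WA of RT-112, however, TFAP2C was at 179.87 CPM, against 56.2 CPM in WK and 142.75 CPM in WC. TFAP2A was at 25.32 CPM there and at 20.31 CPM in WK. In KA of RT-112 TFAP2C was at 49.4 CPM against 57.95 CPM in KK. In HT-1376 it was at 171.7 against 158.24 CPM in KA and KK, and at 98.03 against 68.99 CPM in WA and WK. A and C thus also refer to the labels, and why TFAP2C was high in WA was not tested.

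Promoter sequence was available for 5 of the 7 genes (8 windows from 250 bases before to 50 after a RefSeq start, GRCh38.p14), and none for NGFR and BAALC. The stretches below are shown because COL7A1 had the highest median difference between W and K on the log2 scale used below and because ACTA2 and ST6GAL1 hold the letters GCCNNNGGC, a form of the AP-2 binding motif, which were searched on both strands. In the COL7A1 stretch (chr3:48595330-48595579, minus strand, directly before the gene) capitals mark GGGCGG on either strand, and in the others they mark GCCNNNGGC. The ACTA2 stretch (chr10:88952774-88953023, minus strand) precedes an internal start of the gene. The ST6GAL1 site (chr3:186930417-186930445, plus strand) is a stretch of 29 bases. It lies before the RefSeq start of its window but past the start of the gene in GENCODE 44 (186930325).
COL7A1: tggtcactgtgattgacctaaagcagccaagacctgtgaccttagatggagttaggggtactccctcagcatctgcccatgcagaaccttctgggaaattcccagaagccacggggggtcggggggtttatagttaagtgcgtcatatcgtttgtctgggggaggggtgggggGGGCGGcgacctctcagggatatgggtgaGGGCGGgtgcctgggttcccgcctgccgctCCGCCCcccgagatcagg
ACTA2: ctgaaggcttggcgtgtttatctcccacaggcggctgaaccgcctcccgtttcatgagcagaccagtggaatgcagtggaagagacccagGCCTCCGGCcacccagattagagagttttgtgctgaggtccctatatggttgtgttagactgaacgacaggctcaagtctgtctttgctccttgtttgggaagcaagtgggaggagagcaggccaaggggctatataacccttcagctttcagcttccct
ST6GAL1: gcgcggtgtgGCCGGTGGCgagaggtgga
The letters GCCNNNGGC were found 160 bases before the start of ACTA2 and 99 bases before that of ST6GAL1. They were present in 2 of the 8 windows of these genes, against 23.2% of 35116 RefSeq windows of the same length. COL7A1 held GGGCGG at 77, 48 and 18 bases before its start, letters found in 45.0% of all windows. The table gives 1 value per gene, so that the start used in these cells cannot be read from it.

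In RT-112 and HT-1376 all 7 genes were higher in W than in K in 6 of 6 pairs, which is how they were chosen. In such bulk libraries, fewer cells that express a gene and less RNA per cell cannot be told apart. By comparison 572 of 11691 genes (4.89%) were higher in W in 6 of 6 pairs, among those that reached 5 CPM in 1 or more of the 12 libraries. Of the 7, 4 passed this filter (NGFR, COL7A1, ST6GALNAC6 and BAALC), and ADRB1, ACTA2 and ST6GAL1 did not exceed 2.68, 4.98 and 2.24 CPM. Log2 differences below are on the scale of log2(CPM + 0.5), which understates the change of low genes. On this scale the median over the 6 pairs was highest for COL7A1 at 3.00, followed by BAALC at 2.53, NGFR at 1.86, ADRB1 at 1.30, ST6GAL1 at 1.26, ACTA2 at 1.25 and ST6GALNAC6 at 0.86. The median of all genes past the filter in the limma fit was -0.11.

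**Figure D1:**
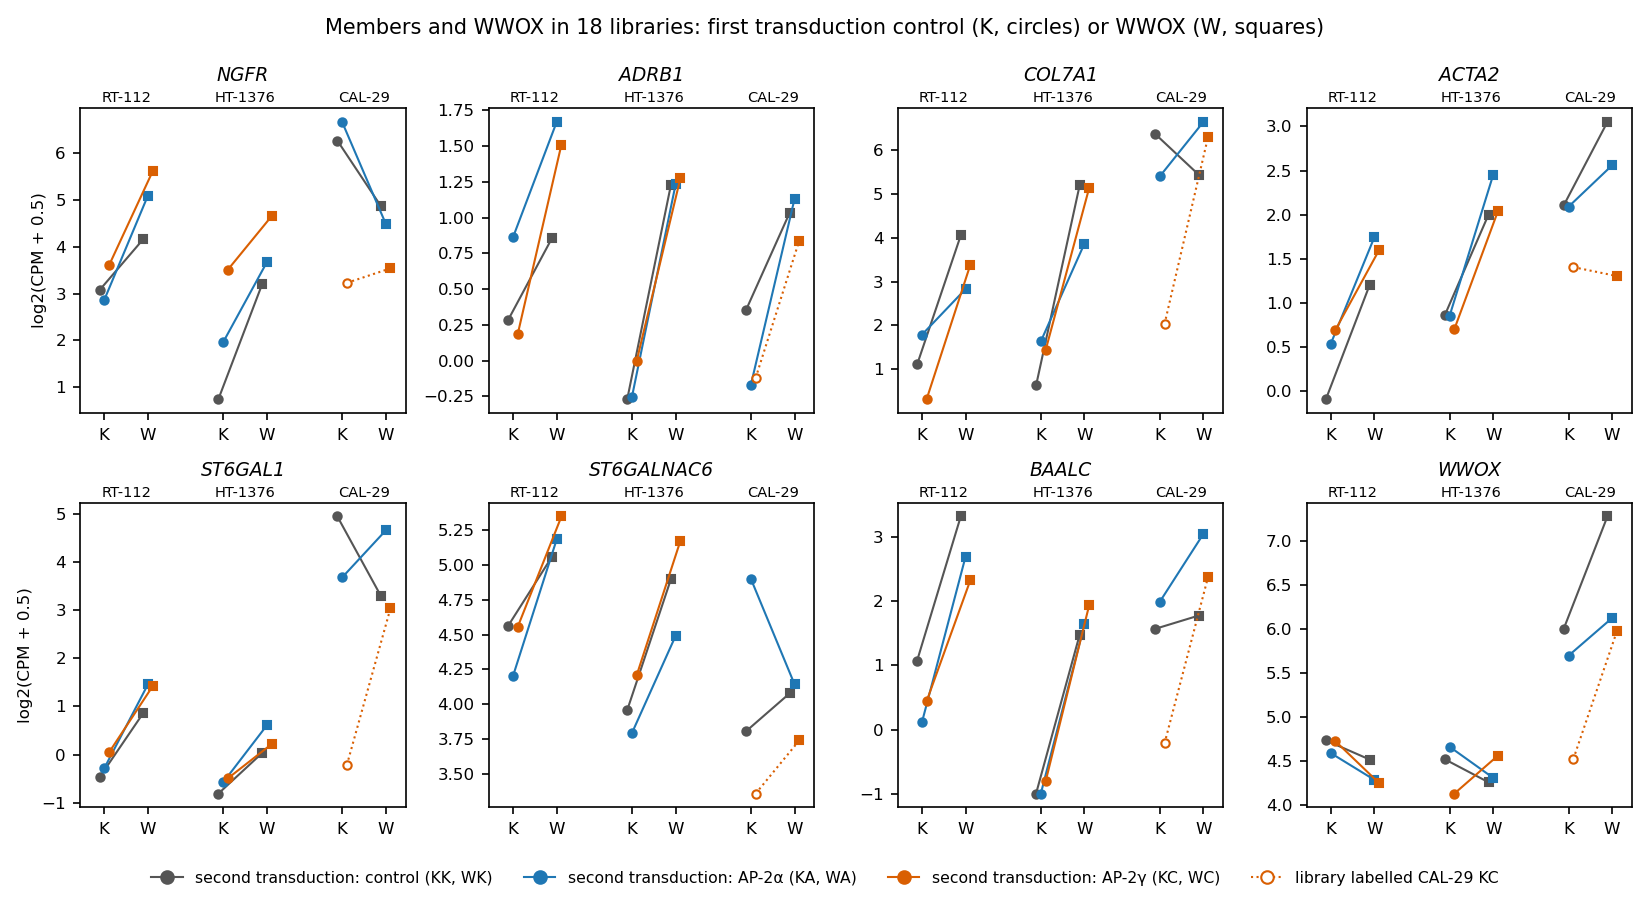
Levels of the 7 genes and of WWOX in 18 libraries, as log2(CPM + 0.5), with 1 panel per gene and its own axis. Circles are K and squares are W libraries, joined within each second transduction, and the open circle is KC of CAL-29 as labelled. All lines rise from K to W in RT-112 and HT-1376 for the 7 genes, whereas those of WWOX rise in 1 of 6 pairs and those of NGFR fall in 2 of 3 CAL-29 pairs.

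Among the receptors, NGFR (chr17:49495293-49515008) encodes the p75 receptor that binds neurotrophins. In RT-112 it was at 7.92, 6.79 and 11.65 CPM in KK, KA and KC and at 17.37, 33.59 and 48.35 CPM in WK, WA and WC. In HT-1376 the values were 1.18, 3.40 and 10.92 CPM in K and 8.66, 12.21 and 24.65 CPM in W. W and K did not overlap in RT-112, but WK of HT-1376 lay below KC of the same line. The ratio of W to K ranged from 2.19 (95% interval 1.79 to 2.69) in WK of RT-112 to 7.31 (4.47 to 12.7) in WK of HT-1376.

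ADRB1 (chr10:114043866-114046904) encodes a beta-adrenergic receptor and was low throughout. It was at 0.72, 1.32 and 0.64 CPM in the K libraries of RT-112 and at 1.31, 2.68 and 2.35 CPM in the W libraries. The corresponding values in HT-1376 were 0.33, 0.34 and 0.50 CPM, and 1.84, 1.85 and 1.92 CPM. The groups were apart in HT-1376, and in RT-112 WK lay just under KA. These levels rested on 5 to 25 reads per K library and 24 to 48 reads per W library, and the interval of the ratio of WK to KK in RT-112 (1.81, 95% interval 0.888 to 3.88) included no difference.

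COL7A1 (chr3:48564073-48595329) encodes type VII collagen, the protein of the anchoring fibrils that hold epithelium to the underlying matrix. Its CPM was 1.66, 2.95 and 0.75 in the K libraries of RT-112 and 16.06, 6.60 and 9.89 in the W libraries. In HT-1376 it was 1.05, 2.61 and 2.20 in K and 36.13, 14.06 and 34.62 in W. All W libraries were above all K libraries of the 2 lines. The ratio was widest in WK against KK of HT-1376 at 34.3 (95% interval 21.0 to 60.4) and narrowest in WA against KA of RT-112 at 2.24 (1.62 to 3.13). The pair with AP-2α was the smallest of the 3 in both lines.

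ACTA2 (chr10:88935074-88991339) encodes the actin of smooth muscle, which is also a marker of myofibroblasts. K libraries of RT-112 were at 0.44, 0.95 and 1.12 CPM and W libraries at 1.80, 2.85 and 2.53 CPM, and those of HT-1376 were at 1.32, 1.31 and 1.13 CPM and at 3.50, 4.98 and 3.62 CPM. All W libraries lay above all K libraries, at 2.26- to 4.05-fold within pairs. Of 12 mesenchymal markers, 9 were in the table. Their summed level was 67.93 to 97.05 CPM in K and 53.33 to 118.1 CPM in W of RT-112, and 19.47 to 77.56 CPM in K and 78.44 to 103.48 CPM in W of HT-1376. VIM was at 0 in all 12 libraries. COL1A1, COL1A2 and THY1 reached 7.6, 0 and 0.22 CPM in RT-112 and 23.28, 46.08 and 12.82 CPM in HT-1376. TAGLN, a contractile gene, was at 34.43 to 97.66 CPM in RT-112 and at 14.07 to 62.75 CPM in HT-1376. LUM was at 10.67 to 14.31 CPM in RT-112 and at 0 to 0.22 CPM in HT-1376. The others, COL3A1, FAP and CNN1, did not exceed 2.78 CPM in these lines. Of 5 leukocyte markers CD14 and CD68 were in the table, and their sum was 6.63 to 11.75 CPM in K and 10.79 to 24.09 CPM in W of RT-112, and 1.91 to 2.38 CPM in K and 6.45 to 15.07 CPM in W of HT-1376. CD14 did not exceed 0.05 CPM in RT-112 and 0.38 CPM in HT-1376, so these sums were mostly CD68 alone. The part of these markers in the difference was not tested.

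The sialyltransferase ST6GAL1 (chr3:186930325-187078553), which caps the galactose of N-glycans with sialic acid, was low in both lines. In RT-112 it was at 0.22, 0.32 and 0.53 CPM in K and at 1.31, 2.24 and 2.17 CPM in W. The K libraries of HT-1376 held 1, 3 and 3 reads (0.07, 0.17 and 0.21 CPM) and its W libraries 9, 16 and 12 reads (0.52, 1.02 and 0.66 CPM). W and K did not overlap in either line. In HT-1376 the K libraries were at or near the limit of 3 reads, and the ratios of 7.85 (95% interval 1.09 to 344), 6.01 (1.72 to 32.2) and 3.09 (0.834 to 17.1) in WK, WA and WC carried wide counting error.

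ST6GALNAC6 (chr9:127885321-127905408), which sialylates N-acetylgalactosamine residues of glycans including gangliosides, had the smallest median difference. It was at 23.16, 17.94 and 23.04 CPM in K and 32.78, 35.77 and 40.15 CPM in W of RT-112. In HT-1376 it was at 15.06, 13.39 and 18.01 CPM in K and 29.25, 21.98 and 35.50 CPM in W. The groups did not overlap in either line, and the 6 ratios lay between 1.42 (95% interval 1.25 to 1.61) and 1.99 (1.75 to 2.28), each on 229 or more reads per library.

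BAALC (chr8:103140713-103230305), whose transcript is used as a marker in acute leukaemia, was at 1.61, 0.58 and 0.86 CPM in K and at 9.53, 5.98 and 4.52 CPM in W of RT-112. The K libraries of HT-1376 held 0, 0 and 1 read, and its W libraries were at 2.29, 2.62 and 3.34 CPM (40, 41 and 61 reads). In HT-1376 it was thus at or under the limit of 3 reads in every K library and above it in every W library. Set against 3 reads in the K library, WK of HT-1376 was 11.6-fold and WA 15.4-fold higher, without the counting error of W. With that error included, the exact lower 95% limits were 9.03 for WK against KK and 11.96 for WA against KA. The ratio of WC to KC was 47.1 (95% interval 8.15 to 1892) on the single read of KC. The RT-112 ratios were 5.93, 10.3 and 5.29.

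W and K therefore stood apart without overlap in both lines for 5 of the 7 genes, the exceptions being ADRB1 in RT-112 and NGFR in HT-1376. Among genes past the filter, 249 of 11691 (2.13%) had all W above all K libraries in both lines, and 274 (2.34%) had all W below all K. In limma over the 12 libraries, with terms for cell line and second transduction, the W difference was 2.92 ± 0.38 (SE, log2) for COL7A1, 2.43 ± 0.23 for BAALC, 1.77 ± 0.23 for NGFR and 0.81 ± 0.12 for ST6GALNAC6. Without the filter on low values it was 1.25 ± 0.16 for ACTA2, 1.20 ± 0.15 for ST6GAL1 and 1.16 ± 0.18 for ADRB1. On recovered reads, edgeR gave 3.63 for BAALC and 3.29 for COL7A1, and the value of BAALC depends there on the prior count, since 2 of its libraries were at 0. Over all genes the fit called 3 (0.0257%) at an adjusted p of 0.05, and 5 of 16488 (0.0303%) without the filter. All of these were among the 7 genes, so no gene outside the choice was called. Since the 7 genes were chosen on this difference, these calls are no support for it, and their adjusted p are not given. The calls were 3 higher and 0 lower in W on the deposited scale, against 36 higher and 9 lower after TMM scaling, which moved the median of all genes from -0.11 to -0.02.

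**Figure D2:**
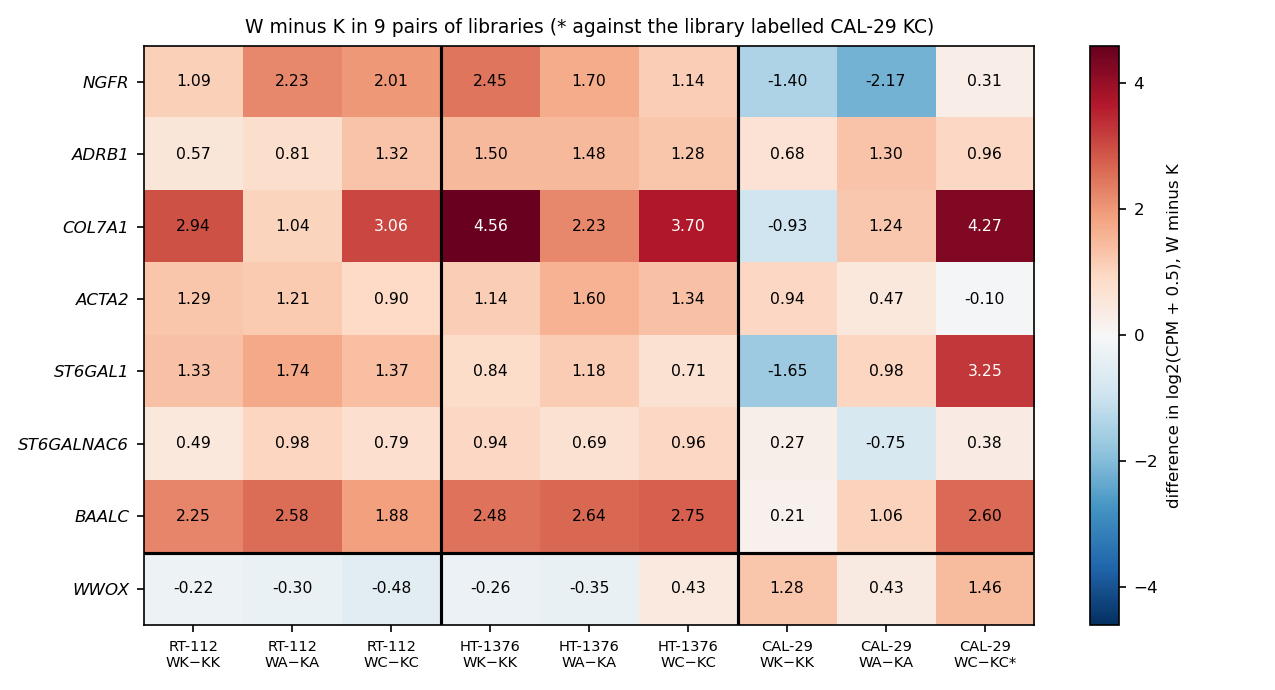
Difference in log2(CPM + 0.5), W minus K, for each of the 7 genes and WWOX (rows) in the 9 pairs of libraries (columns, 3 per cell line), with the value printed in each cell. Red marks a higher level in W. The 7 genes are positive in all 6 pairs of RT-112 and HT-1376, from 0.49 to 4.56, and mixed in CAL-29, where the asterisk marks the pair with the doubtful KC library.

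In CAL-29 the genes did not move together. ADRB1 was higher in W in both pairs whose labels were not in doubt, at 1.55 against 0.78 CPM in WK and KK and 1.69 against 0.39 CPM in WA and KA. ACTA2 was higher as well, at 7.79 against 3.81 CPM and 5.40 against 3.76 CPM, and so was BAALC at 2.93 against 2.47 CPM and 7.80 against 3.48 CPM. The interval of the BAALC ratio in the first of these pairs (1.19, 95% interval 0.781 to 1.81) included no difference.

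NGFR ran in the other direction in CAL-29. It was at 76.57 and 101.08 CPM in KK and KA, the highest levels of this gene among the 18 libraries, and at 28.67, 22.04 and 11.13 CPM in WK, WA and WC. The W libraries were 0.375-fold (95% interval 0.338 to 0.415) and 0.218-fold (0.195 to 0.243) of their K partners. COL7A1 and ST6GAL1 took opposite directions in these pairs. COL7A1 was at 42.76 in WK against 81.96 CPM in KK and at 98.94 in WA against 41.58 CPM in KA, and ST6GAL1 was at 9.28 against 30.27 CPM and at 24.65 against 12.28 CPM. ST6GALNAC6 was at 16.41 against 13.51 CPM and at 17.18 against 29.31 CPM. In the limma fit of 17 libraries with a separate WWOX term per line, the CAL-29 difference was -2.42 ± 0.59 (SE, log2) for NGFR, 0.64 ± 0.44 for BAALC, 0.29 ± 0.43 for ACTA2, 0.24 ± 0.58 for COL7A1, -0.42 ± 0.31 for ST6GALNAC6 and -0.64 ± 0.48 for ST6GAL1. These values are given without a test, since it is not known whether the choice of genes used this line. WWOX itself was 2.43- and 1.35-fold higher in WK and WA of CAL-29.

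KC of CAL-29, as labelled, differed most from its line in ST6GAL1 (0.36 CPM, against 7.70 to 30.27 CPM in the other 5) and COL7A1 (3.58 CPM, against 41.58 to 98.94 CPM). BAALC was at 0.36 CPM in it and NGFR at 8.88 CPM. Against this library, WC of CAL-29 showed log2 differences of 4.27 for COL7A1, 3.25 for ST6GAL1, 2.60 for BAALC, 0.96 for ADRB1, 0.38 for ST6GALNAC6, 0.31 for NGFR and -0.10 for ACTA2. The difference between cell line and variant cannot be told apart in this pair.

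The AP-2 transductions provided comparisons that the choice of genes did not use, since each was balanced over W and K. No gene was called by limma for AP-2α (0 of 11691, 0%, with 611 or 5.23% at an unadjusted p under 0.05, 1 gene or 0.00855% called by edgeR and 5 or 0.0428% by DESeq2) or for AP-2γ (0 of 11691, 0%, with 591 or 5.06% unadjusted, 2 genes or 0.0171% called by edgeR and 24 or 0.205% by DESeq2). The largest AP-2 difference among the 7 genes was that of NGFR with AP-2γ. NGFR was higher in C than in the control of the second transduction in 4 of 4 comparisons, at 11.65 against 7.92 CPM and 48.35 against 17.37 CPM in RT-112 and at 10.92 against 1.18 CPM and 24.65 against 8.66 CPM in HT-1376. The AP-2γ difference was 1.55 ± 0.28 (SE, log2) with an unadjusted p of 0.00018 and an adjusted p of 0.63 in limma, so it did not pass over all genes. It was not called by edgeR (adjusted p = 0.50) or limma-voom (adjusted p = 0.20), and DESeq2 called it (1.61, adjusted p = 0.0051). It was 0.99 in RT-112 alone and 2.11 in HT-1376 alone (limma, adjusted p = 0.70 and 0.66), and 0.62 over 17 libraries of the 3 lines. In CAL-29, WC lay below WK (11.13 against 28.67 CPM). For AP-2α the NGFR difference was 0.60 ± 0.28 (limma, adjusted p = 0.89), higher in 3 of 4 comparisons.

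**Figure D3:**
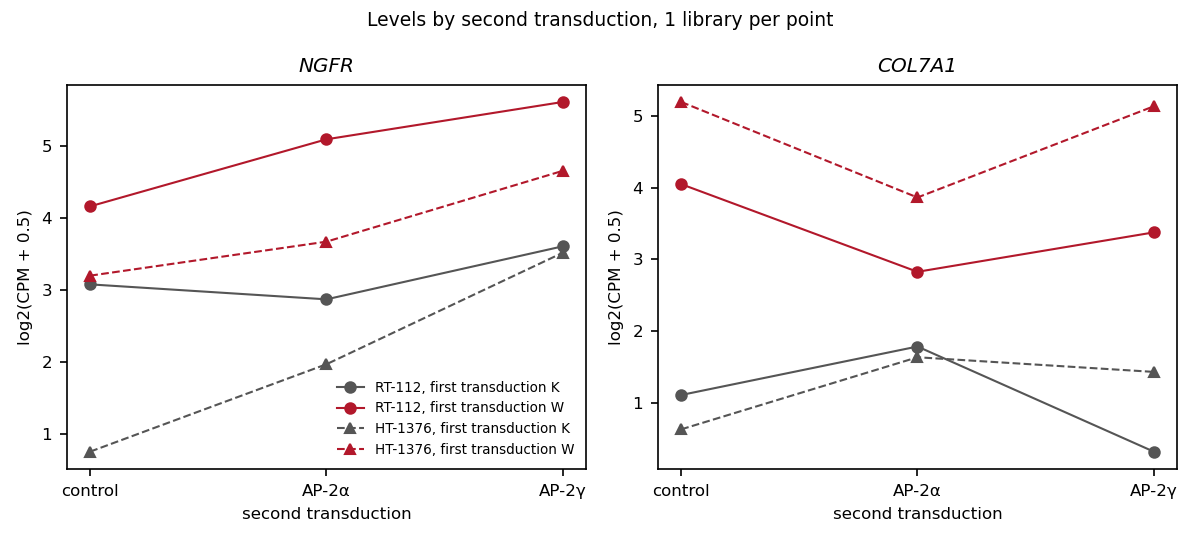
Levels of NGFR and COL7A1 as log2(CPM + 0.5) in RT-112 (circles) and HT-1376 (triangles) by second transduction, with 1 library per point and lines joining the libraries of 1 first transduction (grey K, red W). NGFR is highest with AP-2γ in all 4 series, and COL7A1 is lowest with AP-2α in both W series but highest with AP-2α in both K series.

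COL7A1 had no common AP-2α direction. In the W libraries, A lay below the control of the second transduction (6.60 against 16.06 CPM in RT-112 and 14.06 against 36.13 CPM in HT-1376), while in the K libraries it lay above it (2.95 against 1.66 CPM and 2.61 against 1.05 CPM). Whether the AP-2α difference depended on WWOX was not tested. The differences over both were -0.22 ± 0.47 (SE, log2) for AP-2α (limma, adjusted p = 0.99) and -0.18 ± 0.47 for AP-2γ (adjusted p = 0.96). BAALC differed by -0.36 ± 0.28 with AP-2α (limma, adjusted p = 0.92) and ST6GALNAC6 by -0.20 ± 0.14 (adjusted p = 0.92) and, with AP-2γ, by 0.20 ± 0.14 (adjusted p = 0.87). Without the filter, ST6GAL1 differed by 0.40 ± 0.18 and 0.39 ± 0.18 with AP-2α and AP-2γ, ACTA2 by 0.40 ± 0.20 and 0.27 ± 0.20 and ADRB1 by 0.35 ± 0.22 and 0.22 ± 0.22, with limma adjusted p from 0.87 to 0.92.

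The level of the 7 genes was compared between the cell lines. Limma was fitted to 17 libraries with terms for line and variant. It called 8028 of 12991 genes (61.8%) between HT-1376 and RT-112, 9298 (71.6%) between CAL-29 and RT-112 and 7926 (61%) between CAL-29 and HT-1376, and the libraries of a line share their cells, so that these p measure the spread between variants. Of the 7 genes 6 passed the filter in this fit, and 1, 4 and 4 of them were called in these comparisons, shares near or below those of all genes. ACTA2 and ST6GAL1 passed it only through CAL-29 (up to 7.79 and 30.27 CPM, against 4.98 and 2.24 CPM in the other lines). The filter thus favoured a higher CAL-29 level for both, and their place in these counts is in part fixed by it. Without the filter, limma gave ST6GAL1 adjusted p of 9.5e-06 (CAL-29 against RT-112) and 2.4e-06 (against HT-1376), and ACTA2 0.0056 (against RT-112). The median of all genes was itself higher by 0.43, 0.84 and 0.47 (log2) in the same order, and by 0.10, 0.18 and 0.12 after TMM scaling, and the differences below are to be read against these medians.

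ST6GAL1 was ordered CAL-29, RT-112, HT-1376, with medians of 12.28 (7.70 to 30.27, n = 5), 0.92 (0.22 to 2.24, n = 6) and 0.365 CPM (0.07 to 1.02, n = 6). CAL-29 exceeded RT-112 by 3.34 ± 0.41 (SE, log2; limma, adjusted p = 8.5e-06) and HT-1376 by 4.01 ± 0.41 (adjusted p = 2.3e-06). HT-1376 and RT-112 differed by -0.67 ± 0.38 (adjusted p = 0.14), a difference that limma called after TMM scaling (-0.89), after quantile normalization (-1.38) and without KK of CAL-29 (-0.67), and that limma-voom, edgeR and DESeq2 called at -1.62 to -1.70. COL7A1 was also highest in CAL-29, with a median of 78.27 CPM against 4.775 CPM in RT-112 and 8.335 CPM in HT-1376. Its level in CAL-29 was above that in RT-112 by 3.43 ± 0.55 (limma, adjusted p = 8.3e-05) and above that in HT-1376 by 2.70 ± 0.55 (adjusted p = 0.00092), and the other two lines did not differ beyond their spread (0.74, adjusted p = 0.22), although they did without KK of HT-1376 (1.17, adjusted p = 0.043).

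NGFR had medians of 28.67 CPM (11.13 to 101.08) in CAL-29, 14.51 CPM (6.79 to 48.35) in RT-112 and 9.79 CPM (1.18 to 24.65) in HT-1376. CAL-29 exceeded HT-1376 by 2.22 ± 0.75 (SE, log2; limma, adjusted p = 0.020), a call that was lost without any one of KK of HT-1376, KK of CAL-29 and KA of CAL-29, after quantile normalization (adjusted p = 0.058) and by limma-voom (adjusted p = 0.10), and neither neighbour in the order differed beyond its spread. Without WC of CAL-29, the difference between CAL-29 and RT-112 was called (1.92, adjusted p = 0.016). BAALC was lower in HT-1376 than in RT-112 (-1.29 ± 0.38, limma, adjusted p = 0.0088) and than in CAL-29, which was higher by 1.54 ± 0.40 (adjusted p = 0.0048, not called by edgeR, by limma-voom or after quantile normalization).

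ACTA2 was higher in CAL-29 than in RT-112 by 1.17 ± 0.33 (limma, adjusted p = 0.0052) on the deposited scale. After TMM scaling this fell to 0.58 and was not called, and after quantile normalization it reversed to -0.14. Its difference between CAL-29 and HT-1376 was 0.63 (limma, adjusted p = 0.11) and was called without WC of CAL-29 (0.99, adjusted p = 0.0064). ST6GALNAC6 was lower in CAL-29 than in RT-112 (-0.73 ± 0.28, limma, adjusted p = 0.031), a call lost without any one of KK, WK, WA and WC of either line (adjusted p from 0.050 to 0.12). The value without WC of CAL-29 was -0.48, and it was -1.44 after TMM scaling and from -1.44 to -1.62 after quantile normalization and by limma-voom, edgeR and DESeq2, each with a call. Between CAL-29 and HT-1376, ST6GALNAC6 differed by -0.33 (limma, adjusted p = 0.32) and was called without KA of CAL-29 (-0.69), after quantile normalization (-0.88) and by limma-voom (-0.77). Between HT-1376 and RT-112 it differed by -0.40 (limma, adjusted p = 0.20) and was called after TMM scaling and by limma-voom, edgeR and DESeq2 (-0.75 to -0.78). ADRB1, below the filter, had medians of 1.31, 1.17 and 1.29 CPM in RT-112, HT-1376 and CAL-29, and the differences between lines in the fit without a filter were -0.36, -0.38 and -0.02 (limma, adjusted p = 0.15, 0.15 and 0.94).

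The other genes of the same pathways were taken from 6 lists of general knowledge, without the 7 genes, with 103 genes past the filter in RT-112 and HT-1376. Limma called 0 of the 103 for the WWOX transduction, 28 had an unadjusted p under 0.05 (18 higher and 10 lower in W) against 26.4% of all genes, and edgeR called 4, against 1.57% of all genes. In 6 of 6 pairs 11 were higher and 5 were lower, against 4.89% and 6.76% of all genes. The genes named from these lists were picked after their values were seen.

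Of 13 genes of sialylation, the process that ST6GAL1 and ST6GALNAC6 take part in, 4 were higher in W in 6 of 6 pairs and 0 were lower in all pairs, with a median log2 difference of 0.28. The 4 were sialyltransferases, namely ST8SIA4 at 1.40 ± 0.39 (SE, log2; limma, adjusted p = 0.078), ST3GAL2 at 0.94 ± 0.16 (adjusted p = 0.051), ST6GALNAC4 at 0.79 ± 0.14 (adjusted p = 0.051) and ST3GAL4 at 0.62 ± 0.16 (adjusted p = 0.073). None passed in limma, while edgeR called ST8SIA4, ST3GAL2 and ST6GALNAC4 (adjusted p = 0.015, 0.020 and 0.020). Of 23 genes that anchor epithelium to the basement membrane, as the type VII collagen of COL7A1 does, 5 were higher in 6 of 6 pairs and 0 were lower in all pairs, with a median of 0.35. The 5 were COL17A1 of the hemidesmosome at 0.77, the laminin chain LAMB3 at 0.51, the basement membrane collagen COL4A2 at 0.50, the procollagen protease BMP1 at 0.46 and the transglutaminase TGM2 at 1.23, and none passed in limma or edgeR. At an unadjusted limma p under 0.05, 9 genes of this list were higher and 2 were lower, FERMT1 at -0.59 and PLOD2 at -0.63.

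**Figure D4:**
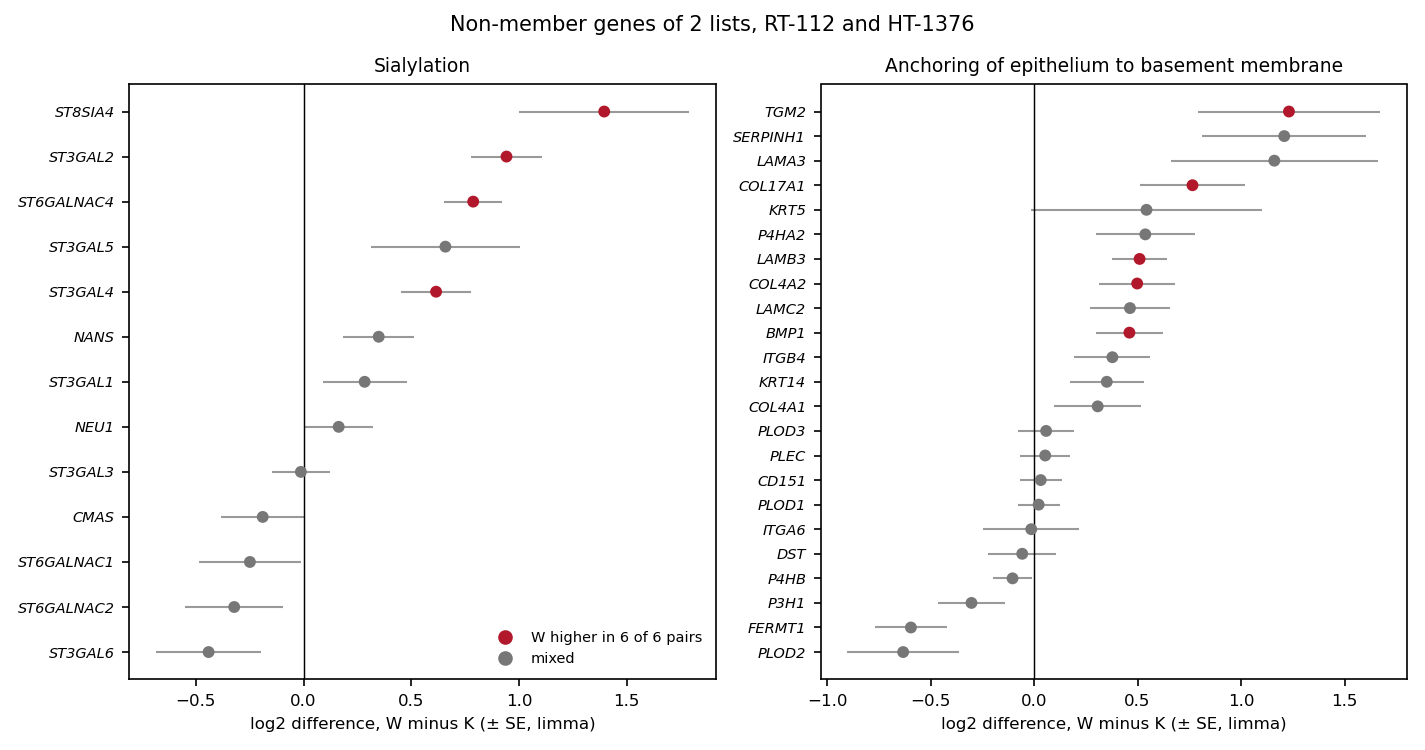
Log2 difference of W minus K (± SE, limma, 12 libraries of RT-112 and HT-1376) for the genes past the filter in the lists of sialylation (13 genes) and of anchoring of epithelium to basement membrane (23 genes). Red points were higher in W in 6 of 6 pairs, 4 in the left panel and 5 in the right panel, and 0 of the 36 genes passed an adjusted p of 0.05.

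The lists that go with the other genes were close to even. Of 26 actin and contractile genes, which go with ACTA2, 0 were higher and 2 were lower in W in all 6 pairs (CNN3 at -1.08 and MYL12B at -0.65), with a median of -0.06. Of 17 genes of neurotrophin signalling, around NGFR, only TRAF2 was higher in all pairs (0.36) and the median was -0.04. Among 17 genes of adrenergic signalling, around ADRB1, GRK2 was higher (0.46, limma adjusted p = 0.069, edgeR adjusted p = 0.048) and the kinase subunits PRKACB (-0.59) and PRKAR1A (-0.46) were lower in all pairs, with a median of -0.20. Of 7 genes listed with BAALC 0 were higher in all pairs, and the median was 0.10.

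The genes next to the 7 on their chromosomes were mostly not higher in W in all pairs, as was the case for most genes. Of the nearest gene of the table on each side, 1 of 14 was higher in W in 6 of 6 pairs. Over all genes past the filter, 4.89% were higher and 6.76% lower in all pairs. The 1 gene was ST6GALNAC4, whose start lies 11.6 kb from that of ST6GALNAC6. EIF4EP2, 70.4 kb from NGFR, was higher in 1 of 6 pairs, at -1.14 ± 0.25 (SE, log2; limma, adjusted p = 0.063). On the side of lower coordinates of ST6GAL1, RFC4, a subunit of the DNA clamp loader, was lower in W in all 6 pairs at -1.07 ± 0.22 (SE, log2; limma, adjusted p = 0.060), with starts 123 kb apart. FZD6, a Wnt receptor 158 kb from BAALC, was lower in all 6 pairs at -0.56 ± 0.19 (limma, adjusted p = 0.11). UQCRC1 and PFKFB4, the neighbours of COL7A1 at 15.6 and 33.3 kb, were each higher in 3 of 6 pairs. FAS, whose start lies 37.5 kb from that of ACTA2 on the other strand, was higher in 5 of 6 pairs at 0.22 to 2.24 CPM.

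The profiles of the 7 genes over the 12 libraries of RT-112 and HT-1376, after the mean of each line was subtracted, correlated with each other at Pearson r of 0.715 (NGFR with COL7A1) to 0.932 (ACTA2 with ST6GAL1). These correlations contain the difference between W and K that chose the genes and share the libraries and their depth, and are given as a description. The genes past the filter most like NGFR were CERCAM (r = 0.960) and RIN1 (0.955), those most like COL7A1 were FZD7 (0.944) and RASD2 (0.932), and those most like BAALC were SLC25A42 (0.938) and OAF (0.930). For ADRB1 they were NDUFAF3 (0.953) and TNFRSF1A (0.951), for ST6GALNAC6 PTP4A3 (0.949) and PGLS (0.942), for ST6GAL1 NIPSNAP1 (0.930) and GRK2 (0.928), and for ACTA2 COLGALT1 and ARL2-SNX15 (both 0.926). All 14 were higher in W in 6 of 6 pairs.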

How the data were processed

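The authors mapped CAGE-seq reads of 18 libraries to hg38 (BWA, then HISAT2 2.0.5), clustered the tags and deposited CPM per gene. The total behind the CPM and the annotation were not given in the sources used here. The column totals were 935917.0 to 947109.6 CPM. Of the values of a library, 99.97% to 99.99% were whole multiples of 1 read within 0.005 CPM, so reads were recovered, and edgeR on them called 183 genes for the WWOX transduction. Low values alone did not settle the step of RT-112 WC. Columns without a sample numbered 0. Identifiers were matched to GENCODE 44 (16553 of 16575 genes, 22 without a symbol), and loci are on GRCh38.

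Values were transformed to log2(CPM + 0.5), genes that reached 5 CPM in 1 or more libraries of a fit were kept, and limma 3.58.1 (R 4.3.3, trended variance, Benjamini-Hochberg) was fitted to 12 libraries with terms for cell line, first and second transduction. The methods of the study name limma-voom without a block. The line pairs the libraries by design, and libraries of a line deviated together from their variant means (lowest r of 0.742 for RT-112, 0.588 for HT-1376 and 0.663 for CAL-29, the library labelled KC of CAL-29 left out). Ratios carry exact 95% binomial intervals on recovered reads. With 1 library per variant and line, p-values measure the spread between libraries. The alternatives were other pseudocounts and filters, TMM and quantile normalization, voom, edgeR 4.0.16, DESeq2 1.42.0, other sets of lines and each library left out. The fits were tested on simulated data. No pair of libraries was a duplicate (smallest chi-square per degree of freedom 19.4).

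The members and lists were chosen with earlier results of these data known. The genes named were the 7 genes, WWOX, TFAP2A and TFAP2C, up to 3 genes per list and direction past an adjusted p of 0.05 (there were 0, and the list genes named were chosen outside this rule after their values were seen), the nearest gene of the table on each side, the 2 genes most correlated with each, and the cell type markers. Of 4 endothelial markers 1 was in the table, CDH5 at 0.05 to 4.11 CPM. Some genes are not reported here. Plots were drawn with matplotlib 3.10.9.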

Additional observations from a re-analysis of the deposited data

Results flagged for a closer look

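NGFR was lower in W than in K in both CAL-29 pairs that leave out the library labelled CAL-29 KC, by a mean log2 difference of -1.79, while it was higher in W in 6 of 6 pairs of RT-112 and HT-1376. It was named here because every pair of one set moved one way and every pair of the other the opposite way, and the difference between the sets was not tested. Of 21 groups of libraries examined for a value that stands apart (Dixon's criterion at 95%, which chance meets in about 1 in 20 groups), 3 held one. COL7A1 at 3.58 CPM and ST6GAL1 at 0.36 CPM in the library labelled CAL-29 KC were the lowest of the 6 libraries labelled CAL-29. ACTA2 at 0.44 CPM in KK of RT-112 was the lowest of the 6 K libraries of RT-112 and HT-1376.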

How the results depend on the processing

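The difference that chose the genes stayed positive where each could be fitted (28 settings for NGFR, COL7A1 and ST6GALNAC6, 26 for BAALC, 4 for ACTA2 and ST6GAL1, 2 for ADRB1). These settings refit the libraries that chose the genes, so the sign was largely fixed beforehand and is no support. The size moved: NGFR was at 0.60 over 17 and 0.82 over 18 libraries of 3 lines, BAALC ranged from 1.36 to 4.04 and ST6GAL1 from 0.69 to 2.45. The 3 genes called in the reported fit were all among the 7 genes. The number of genes called for the WWOX transduction was 3, and 21 with a pseudocount of 0.05 CPM, 5 with 2 CPM, 5 without the filter, 0 with 5 CPM in at least 3 libraries, 45 after TMM scaling, 905 by limma-voom, 183 by edgeR, 1217 by DESeq2, 0 in RT-112 alone, 1928 in HT-1376 alone, 0 over 17 and 0 over 18 libraries of 3 lines, and 329 by edgeR without the filter (added after the data were seen). It was 1 to 810 with 1 library left out, with 810 without WK of RT-112 and 34 without KK of RT-112. Without the cell line as replicate block 0 genes were called (625 at an unadjusted p under 0.05), and the blocked fit is the one reported. For AP-2α 0 genes were called, with 1 by edgeR, 5 by DESeq2, 3 in RT-112 alone and 2 by edgeR without the filter, and for AP-2γ 0, with 2, 24, 4 and 2 in this order. With 1 library left out these AP-2 counts were 0 to 0. Of the related genes 0 were called, with 2 after TMM scaling, 11 by limma-voom, 4 by edgeR, 19 by DESeq2, 19 in HT-1376 alone, 4 by edgeR without the filter and 0 to 7 with 1 library left out. After quantile normalization the difference of CAL-29 from RT-112 reversed to -0.14 for ACTA2 and -1.02 for BAALC. The causes were not tested. Each variant had 1 library per line, and BAALC, ST6GAL1, ADRB1 and ACTA2 rested on 0 to 29 reads in each K library of RT-112 and HT-1376, which limits their ratios.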
